A study of Mus musculus with 18 samples.

Results

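The genes described here are 37 members of the unfolded protein and amino acid stress programmes, taken by name from a count table of 54532 genes measured in 18 mouse tumours. They were treated as 2 arms: an endoplasmic reticulum (ER) arm of 17 chaperone, folding and degradation genes, and an Atf4 arm of 20 stress regulators and genes of amino acid and one-carbon supply. The tumours were grown in mice from PB2, a mouse breast cancer cell line; 10 carried the genotype EV and 8 the genotype p95HER2, a truncated form of the receptor HER2. Mice of both genotypes received the doxycycline diet DOX625, so that exposure is shared by the groups. No source used here gives the strain, sex or age of the mice, the driver of the transgene or the number of clones behind each genotype. Tumour cells and host cells are both of mouse origin, so each count sums over them, and fewer cells of a type cannot be told apart from less RNA per cell. Whether every tumour had its own mouse is not stated, so a p-value reflects only how far these samples vary.

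Proteins that enter the endoplasmic reticulum are folded there by chaperones. When unfolded protein builds up, the sensors Ire1 (Ern1), Atf6 and Perk (Eif2ak3) respond: Ire1 splices the Xbp1 mRNA, Atf6 is cut to release a transcription factor, and Perk phosphorylates the translation factor eIF2. Phosphorylated eIF2 slows protein synthesis in general and favours translation of Atf4, and the kinases Gcn2 (Eif2ak4), Hri (Eif2ak1) and Pkr (Eif2ak2) reach Atf4 through the same step when amino acids or heme run short, in mitochondrial stress or in viral infection. Atf4 then raises genes for amino acid synthesis and uptake and, with Ddit3 (CHOP), genes that feed back on the response. Much of this control acts on translation and splicing, which counts of mRNA per gene do not measure.

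Total counts per library ran from 35030920 to 38464541 for EV and from 32686558 to 34804640 for p95HER2, ranges that did not overlap, so depth ran with genotype. The numbers in the tumours' titles, whose meaning is not stated, were all lower for p95HER2 than for EV, and that of p95HER2 1 lay far below the rest. Levels are given in CPM, the reads of a gene relative to the library total, scaled by the trimmed mean of M values (TMM). Erbb2 reads, a check of the labels, ran from 60.4 to 74.9 CPM in EV and from 122 to 231 CPM in p95HER2 tumours. The 9 epithelial markers were all detected, with a summed level of 1901 to 3192 CPM in EV and 1991 to 2561 CPM in p95HER2 tumours. Single markers went both ways, with log2 fold changes, p95HER2 over EV, from -1.2 to 1.025, so similar sums need not mean similar epithelial content. The 10 macrophage markers summed to 607 to 1397 CPM in EV and 367.5 to 913 CPM in p95HER2 tumours. The 10 skeletal muscle markers varied most, from 111 to 6998 CPM in EV and from 348 to 3518 CPM in p95HER2 tumours. No marker of the 8 cell type lists was at 0 in every library.

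All 37 members passed the filter on low counts and were tested. Of the 37 members 2 changed, both in the Atf4 arm: Psat1 fell and Vldlr rose. Over all 17123 genes tested, 10.2% changed, 5.73% higher and 4.45% lower (edgeR quasi-likelihood test, Benjamini-Hochberg (BH) adjusted p under 0.05). In the ER arm, 0 of 17 members were called higher and 0 lower by edgeR, and 0 had an unadjusted p under 0.05; DESeq2 and limma voom called none either, against 13.8% and 13.3% of all genes in either direction. In the Atf4 arm, 1 of 20 was called higher and 1 lower, which is 10% of the arm and near that background. The median log2 fold change, p95HER2 over EV, was -0.03 in the ER arm and -0.08 in the Atf4 arm, against -0.01 over all genes tested. The estimates were narrow in the ER arm: the 95% interval of the fold change lay within 1.5-fold in either direction for all 17 members. The same held for 17 of 20 members of the Atf4 arm, all but Atf3, Chac1 and Nupr1, and for 12277 of the 17123 genes tested.

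**Figure D1:**
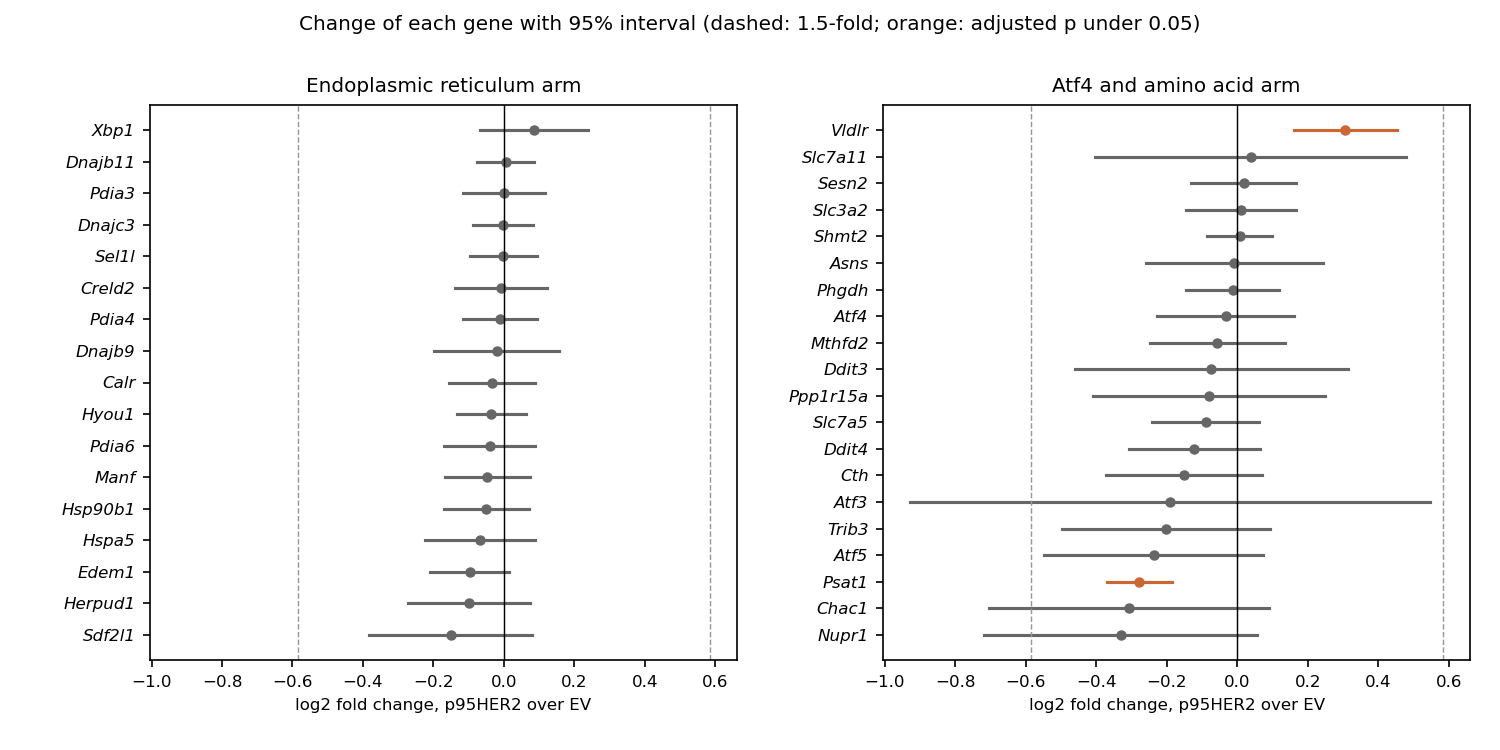
Log2 fold change of each member (x axis, p95HER2 over EV, fitted by edgeR over 10 EV and 8 p95HER2 tumours) with its 95% interval; dashed lines mark 1.5-fold, and the 2 called members are in orange. The ER arm lies near 0 with short intervals, and in the Atf4 arm only the intervals of Psat1 and Vldlr leave 0 out.

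The chaperones lead the ER arm. Hspa5 encodes BiP, the Hsp70 chaperone of the endoplasmic reticulum that also holds the stress sensors inactive (chromosome 2, 34771970 to 34777547, plus strand, mm10). It ran from 848.5 CPM over a median of 986 to 1172 CPM in EV tumours, and from 789 over 904 to 1281 CPM in p95HER2 tumours. The groups overlapped: 2 p95HER2 tumours lay below the lowest EV tumour and 1, p95HER2 8, lay above the highest. Its log2 fold change was -0.07 (SE 0.08, edgeR adjusted p = 0.611), with an interval from 0.856-fold to 1.06-fold. Without p95HER2 8 it was -0.14 (edgeR adjusted p = 0.108). It moved the other way without p95HER2 4, to -0.03 (edgeR adjusted p = 0.838), and without EV 1, to -0.04 (edgeR adjusted p = 0.787). Hsp90b1, the Hsp90 of the same compartment, ran from 748 over 856 to 962 CPM in the EV group and from 722.5 over 808 to 998 CPM in the p95HER2 group (edgeR log2 fold change -0.05, SE 0.06, adjusted p = 0.628). Calr encodes calreticulin, a lectin chaperone for glycoproteins, and ran from 732 over 850 to 952 CPM in EV and from 723 over 830 to 975 CPM in p95HER2 tumours. In both genes p95HER2 8 was the highest and p95HER2 4 the lowest tumour of its group, and neither passed.

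Per kilobase of exon, which allows levels of different genes to be compared, the most abundant members of the ER arm in EV tumours were Pdia3, Calr, Hspa5 and Hsp90b1, at 308, 294, 232 and 211 CPM per kilobase. The next, Pdia4, stood at 93.3 and Pdia6 at 88.4 CPM per kilobase. In p95HER2 tumours the order of the first 4 was the same, at 308, 287, 222 and 204 CPM per kilobase. The coefficients of variation of these genes in EV tumours were 8.69%, 8.24%, 8.98% and 7.66%. The group means of Pdia3 and Calr lay closer than this spread between tumours. Both genes were measured in the same tumours, and their order within each tumour was not tested.

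None of the co-chaperones of BiP passed. Dnajb11 (ERdj3) was at 149 ± 7.12 CPM in EV tumours (SD over n = 10), with 149.7 ± 7.47 CPM in the p95HER2 group (SD over n = 8), and Dnajc3 (p58IPK) had medians of 129 and 131 CPM in those groups. Dnajb9 (ERdj4), a product of the Ire1 and Xbp1 branch that acts back on Ire1, was scarcer, at 34.6 ± 5.03 and 34.1 ± 4.07 CPM. Hyou1, the nucleotide exchange factor Grp170, was at 242 ± 12.9 and 236 ± 19.0 CPM. Sdf2l1, a partner of ERdj3, gave the most negative estimate of the arm, with 56.8 ± 7.31 CPM in the EV group against 51.1 ± 9.84 CPM (log2 fold change -0.15, SE 0.11, edgeR adjusted p = 0.414). One tumour in each genotype was low for it, EV 1 at 39.2 and p95HER2 4 at 30.8 CPM. These were also the tumours with the lowest summed skeletal muscle markers of their group, at 111 and 348 CPM. With the skeletal muscle level in the model the log2 fold change of Sdf2l1 was -0.05 (edgeR adjusted p = 0.764), and without p95HER2 4 it was -0.07 (edgeR adjusted p = 0.671). Without EV 1 it went the other way, to -0.20 (edgeR adjusted p = 0.1915), and without both tumours it was -0.12 (edgeR adjusted p = 0.2245). The part of the muscle level in these values was not tested.

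The disulfide isomerases did not pass either. Pdia3, which works with calreticulin on glycoproteins, had a log2 fold change of 0.0017 (SE 0.056), Pdia4 of -0.01 (SE 0.05) and Pdia6 of -0.04 (SE 0.06). The small secreted and luminal proteins Creld2 and Manf, both induced by ER stress, had medians of 58.4 and 182 CPM in EV tumours. In p95HER2 tumours their medians were 57.3 and 178 CPM, and p95HER2 4 was the lowest and p95HER2 8 the highest for both.

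Xbp1 carries the transcription factor that Ire1 activates by splicing. It ran from 182 over 206.5 to 249.5 CPM in EV and from 168 over 224 to 254 CPM in p95HER2 tumours, and its log2 fold change of 0.08 (SE 0.07) was the highest of the arm without passing (edgeR adjusted p = 0.503). Counts per gene do not separate its spliced from its unspliced form. Of the degradation genes, which return misfolded proteins to the cytosol, Herpud1 was at 39.5 ± 5.67 and 36.9 ± 4.37 CPM and the ligase adaptor Sel1l at 128 ± 4.19 and 128 ± 11.6 CPM. Sel1l had the larger SD in p95HER2 tumours, with 3 of them below the lowest and 2 above the highest EV tumour. Edem1, a lectin that takes mannose-trimmed proteins out of folding, had the smallest unadjusted p of the arm (0.0854; log2 fold change -0.10, SE 0.05, edgeR adjusted p = 0.260), with 7 of 8 p95HER2 tumours below the EV median.

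**Figure D2:**
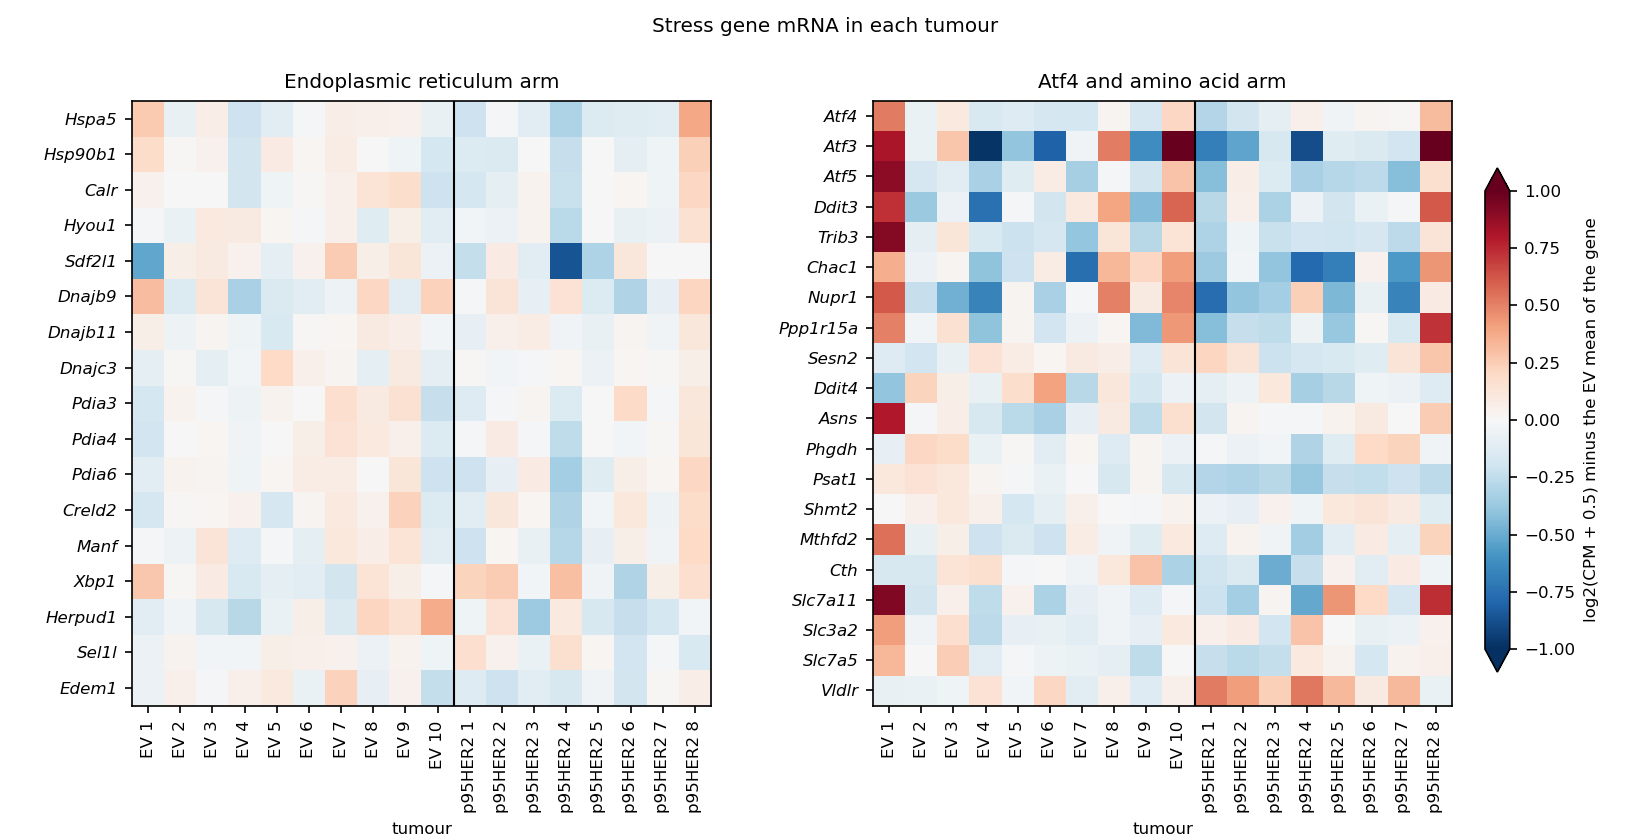
Level of each member in each tumour, as log2(CPM + 0.5) minus the mean of that gene over EV tumours (colour, capped at 1 in either direction), with the ER arm left, the Atf4 arm right and a line between the genotypes. Rows of the ER arm are pale across most tumours, EV 1 and p95HER2 8 stand out in the Atf4 arm, and Psat1 and Vldlr are the rows that split at the line.

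The members were also searched for sequence elements of the 2 arms. They were chosen by name as known genes of these responses, so a share above that of all genes is not independent of the choice. RefSeq promoter windows (GRCm38.p6, from 250 bases before to 50 bases after the start) were matched for 33 of the 37 members; Cth, Hyou1, Manf and Slc7a5 were not matched. The ER stress element ERSE, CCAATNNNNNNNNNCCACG on either strand, is bound by the factor NF-Y at one end and Atf6 or Xbp1 at the other. It was found in 6 of 15 ER arm genes with a window (40%), against 37 of 27025 genes in the table (0.137%) and 0 of 18 Atf4 arm genes. The related ERSE-II, which is ATTGG and CCACG with 1 base between them on either strand, was found in Dnajb11 and Herpud1, 2 of 15 ER arm genes, against 0.0444% of all genes. The core of the unfolded protein response element, TGACGTGG, was found in 0 of 15 and in 0.714% of all genes. Each of these matches is a description of letters and not of binding.

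Stretches of the 6 windows that hold an ERSE, and of the one window with both an ERSE-II and an Atf4 element, are shown 5′ to 3′ on the strand of the gene, so that the spacing of the element's ends can be seen. Capitals mark the element; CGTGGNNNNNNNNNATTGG is the ERSE read on the opposite strand, and in Herpud1 the first run of capitals is the Atf4 element described further on and the second is the ERSE-II.
Hspa5, chr2:34771840-34772089, plus strand: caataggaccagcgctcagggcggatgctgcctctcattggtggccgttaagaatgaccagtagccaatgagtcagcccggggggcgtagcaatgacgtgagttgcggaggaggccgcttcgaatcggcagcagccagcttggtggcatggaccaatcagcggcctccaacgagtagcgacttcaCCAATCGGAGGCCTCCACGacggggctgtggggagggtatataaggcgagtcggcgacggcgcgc
Hsp90b1, chr10:86705525-86705664, minus strand: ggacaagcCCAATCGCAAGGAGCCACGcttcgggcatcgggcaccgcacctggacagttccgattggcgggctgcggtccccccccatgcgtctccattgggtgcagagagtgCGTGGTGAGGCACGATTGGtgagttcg
Calr, chr8:84847052-84847111, minus strand: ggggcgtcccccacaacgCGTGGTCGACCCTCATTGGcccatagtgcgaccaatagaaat
Creld2, chr15:88819506-88819555, plus strand: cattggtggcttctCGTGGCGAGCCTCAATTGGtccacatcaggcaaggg
Pdia6, chr12:17266479-17266528, plus strand: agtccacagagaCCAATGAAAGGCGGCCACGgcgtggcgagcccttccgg
Dnajc3, chr14:118937812-118937861, plus strand: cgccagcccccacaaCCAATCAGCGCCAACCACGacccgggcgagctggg
Herpud1, chr8:94386309-94386393, plus strand: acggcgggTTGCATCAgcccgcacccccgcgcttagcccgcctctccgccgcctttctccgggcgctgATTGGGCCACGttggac

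The ERSE of Hspa5 began 65 bases before the start, and Hsp90b1 held the element at 2 places, 212 and 107 bases before it. In Calr it began 162, in Creld2 126, in Dnajc3 105 and in Pdia6 98 bases before the start. The 6 genes with an ERSE were called in neither direction, as was the whole arm.

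**Figure D3:**
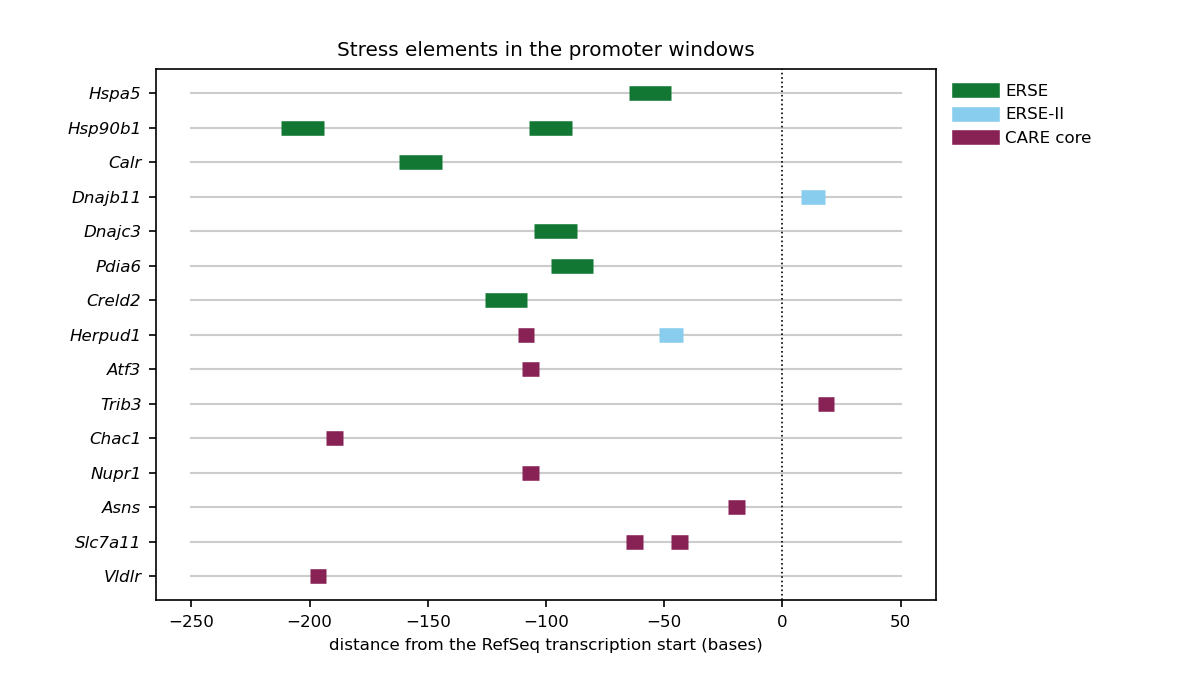
Position of each element found in the promoter windows of the members, as distance in bases from the RefSeq transcription start (x axis); one line per gene, coloured by element. ERSE and ERSE-II fall in genes of the ER arm, the Atf4 element falls in 7 genes of the Atf4 arm and in Herpud1, and the ERSE lie between 212 and 65 bases before the start.

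To see whether members vary together within a genotype, Hspa5 was correlated with each of the other 16 members, Trib3 with each of the other 19 members of the Atf4 arm, and Hspa5 with Trib3, in each genotype apart. These are 72 relations on log2(CPM + 0.5), with a permutation test (exact for 8 tumours) and BH adjustment over all 72. Correlations of Hspa5 or Trib3 with all genes tested were not computed, so the counts of pairs have no background share beside them. In p95HER2 tumours 15 of 16 Pearson correlations with Hspa5 were above 0 (median 0.673), and the difference from EV tumours was not tested. The pair of Hspa5 with Manf passed (r = 0.885, exact permutation adjusted p = 0.0274; rho = 0.833, exact permutation adjusted p = 0.101). Without the 2 tumours farthest from the median Hspa5 level, p95HER2 4 and p95HER2 8, r was 0.744 (exact permutation adjusted p = 0.357), in a test that could hardly pass at that size: with 6 tumours the smallest exact permutation p is 0.00139, which alone adjusts to 0.1 over 72 relations. The only negative correlation was with Sel1l (r = -0.614, rho = -0.571, exact permutation adjusted p = 0.187 and 0.338). In EV tumours 8 of 16 correlations were above 0 (median -0.008) and none passed. The highest was with Hsp90b1 (r = 0.730, rho = 0.515, permutation adjusted p = 0.0663 and 0.319), and its r was 0.218 without EV 1 and EV 4. With all tumours r was at least 0.5 for 11 of 16 pairs in p95HER2 and 6 of 16 in EV tumours. Without the 2 tumours of each genotype farthest from its median Hspa5 level, these counts were 5 and 7.

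p95HER2 8 and p95HER2 4 lay at the ends of the ER arm. p95HER2 8 had the highest level of its genotype for 12 of the 17 ER arm members, and p95HER2 4 the lowest for 10 of 17. The mean of the arm, relative to EV, was 0.13 on the log2 scale in p95HER2 8 and -0.16 in p95HER2 4, and between -0.09 and 0.08 in the other 16 tumours. p95HER2 4 also had the lowest summed macrophage and skeletal muscle markers of its group, at 367.5 and 348 CPM, and p95HER2 8 the highest summed epithelial markers of its group, at 2561 CPM. The epithelial sum of p95HER2 4 was 2365 CPM, also above the group median of 2164 CPM. EV 1 had the highest epithelial sum of all tumours, 3192 CPM, with an ER arm mean of -0.02. The part of these levels in the spread of the arm was not tested.

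The Atf4 arm varied more from tumour to tumour than the ER arm. The median coefficient of variation was 17.4% over its members in EV and 13.3% in p95HER2 tumours. It was 8.24% and 10.2% in the ER arm, and 13.5% and 12.2% over all genes tested. Atf3 varied most, with 54.9% and 62.9%, and Psat1 and Shmt2 least, with 3.75% for Psat1 in p95HER2 and 5.61% for Shmt2 in EV tumours.

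Atf4, the transcription factor at the head of the arm (chromosome 15, 80255184 to 80257541), ran from 186 over 195.5 to 301 CPM in EV and from 171 over 208 to 261 CPM in p95HER2 tumours. EV 1 stood apart at 301 CPM, EV 10 followed at 242.5 CPM, and p95HER2 8 was the highest of its group. Its log2 fold change was -0.03 (SE 0.09, edgeR adjusted p = 0.865). The related factor Atf5 was at 91.8 ± 28.2 CPM in the EV group against 77.9 ± 12.3 CPM (log2 fold change -0.24, SE 0.15, edgeR adjusted p = 0.327), again with EV 1 far above the others at 165 CPM. Without EV 1 the log2 fold change of Atf5 was -0.10 (edgeR adjusted p = 0.518). Atf3, an early factor that represses and activates stress genes, ran from 14.5 over 28.1 to 71.9 CPM in EV and from 15.5 over 25.7 to 72.4 CPM in p95HER2 tumours. Its high values were those of EV 10 and p95HER2 8. The interval of its fold change ran from 0.525-fold to 1.46-fold, and its log2 fold change of -0.19 became 0.01 without EV 10 and -0.54 without p95HER2 8, with no call in any of these fits.

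Ddit3, the factor CHOP that links long stress to cell death, ran from 9.59 over 16.01 to 27.6 CPM in EV and from 13.1 over 15.7 to 25.4 CPM in p95HER2 tumours. Trib3, a pseudokinase induced by Atf4 and CHOP that holds Atf4 back, ran from 33.4 over 40.2 to 83.3 CPM in the EV group and from 35.2 over 38.2 to 48.0 CPM in the other (log2 fold change -0.20, SE 0.14, edgeR adjusted p = 0.386). The EV range of Trib3 ended at 48.3 CPM but for EV 1, and without EV 1 its log2 fold change was -0.06 (edgeR adjusted p = 0.653). Chac1, which degrades glutathione, and Nupr1, a small chromatin protein of stressed cells, had the most negative estimates of the arm, -0.31 (SE 0.19) and -0.33 (SE 0.19), and neither passed (edgeR adjusted p = 0.319 and 0.268). Ppp1r15a (GADD34), which brings the phosphatase that resets eIF2, was at 24.2 ± 5.41 and 22.9 ± 7.05 CPM.

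Sesn2 and Ddit4 restrain the growth kinase mTORC1. Sesn2 was at 39.4 ± 3.32 and 39.95 ± 5.49 CPM. Ddit4 was the most abundant of all 37 members per kilobase of exon, at 405 CPM per kilobase in EV and 372 in p95HER2 tumours, and had 710.2 ± 119 and 653 ± 62.8 CPM (log2 fold change -0.12, SE 0.09, edgeR adjusted p = 0.412).

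Among the biosynthesis genes, Psat1 was the one that changed. It encodes phosphoserine aminotransferase, the second enzyme of serine synthesis, and lies on chromosome 19 (15904678 to 15947337, minus strand). In EV tumours it ran from 114 over 128 to 140.5 CPM, and in p95HER2 tumours from 97.6 over 106 to 110.5 CPM. The groups did not overlap: all 8 p95HER2 tumours lay below the lowest EV tumour, which was the case in one direction or the other for 0.788% of genes tested. Psat1 fell by 17.5% (log2 fold change -0.28, SE 0.04, edgeR adjusted p = 0.0005667). The enzyme before it in the pathway, Phgdh, was at 149 ± 12.4 and 148 ± 17.2 CPM (edgeR adjusted p = 0.929). The last enzyme of the pathway, Psph, taken from a list of further Atf4 genes, had 26.2 ± 2.81 and 24.0 ± 2.33 CPM (log2 fold change -0.12, SE 0.07, edgeR adjusted p = 0.264), and is named here after its value was seen.

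Of 46 other genes tested within 5 Mb of Psat1, 12 were called lower and 2 higher, and their median log2 fold change was -0.25, close to the -0.28 of Psat1 itself. Vldlr, on the same chromosome, lay among 50 tested neighbours with a median of 0.0023 and 0 called in either direction by edgeR. The part of position in the fall of Psat1 was not tested. With the macrophage marker level of each tumour in the model, Psat1 stood at -0.25 (edgeR adjusted p = 0.0512) and Vldlr at 0.14 (edgeR adjusted p = 0.536), and over all genes 139 were called higher and 33 lower, in place of 981 and 762.

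Shmt2 and Mthfd2, mitochondrial enzymes that take one-carbon units from serine, did not pass. Shmt2 was at 135 ± 7.59 and 136 ± 9.13 CPM, with an interval from 0.943-fold to 1.07-fold, and Mthfd2 at 44.4 ± 7.84 and 42.7 ± 5.06 CPM. Asns makes asparagine and is a classical Atf4 target; it ran from 26.0 over 31.5 to 57.2 CPM in EV and from 28.8 over 32.9 to 39.05 CPM in p95HER2 tumours. All EV tumours but EV 1 lay at or under 36.5 CPM. Cth, which makes cysteine from cystathionine, was scarce, at 4.68 ± 0.637 and 4.22 ± 0.574 CPM.

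None of the amino acid transporters passed. Slc3a2 and Slc7a5 form the exchanger that brings in large neutral amino acids, and were at 214 ± 29.6 and 120.4 ± 14.95 CPM in EV and 216 ± 21.4 and 113 ± 12.2 CPM in p95HER2 tumours. Slc7a11, the cystine carrier that pairs with Slc3a2, had the lowest level per kilobase of all members, 0.175 CPM per kilobase in EV tumours. It ran from 1.78 over 2.23 to 4.90 CPM in EV and from 1.49 over 2.21 to 4.24 CPM in p95HER2 tumours, with EV 1 and p95HER2 8 the highest.

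Vldlr, a lipoprotein receptor that Atf4 is known to induce, rose (chromosome 19, 27216484 to 27254231, plus strand). It ran from 107 over 114.5 to 136 CPM in EV and from 112 over 147 to 169 CPM in p95HER2 tumours. Of the 8 p95HER2 tumours, 6 lay above the highest EV tumour and 7 above the EV median. The lowest was p95HER2 8 at 112 CPM, the tumour in which 11 of the 20 members of the arm were highest in its group. The rise was 23.7% (log2 fold change 0.31, SE 0.07, edgeR adjusted p = 0.008613). Against Trib3, Vldlr had r = -0.077 in EV (rho = 0.248, permutation adjusted p = 0.943 and 0.721) and r = -0.646 in p95HER2 tumours (rho = -0.429, exact permutation adjusted p = 0.166 and 0.525).

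**Figure D4:**
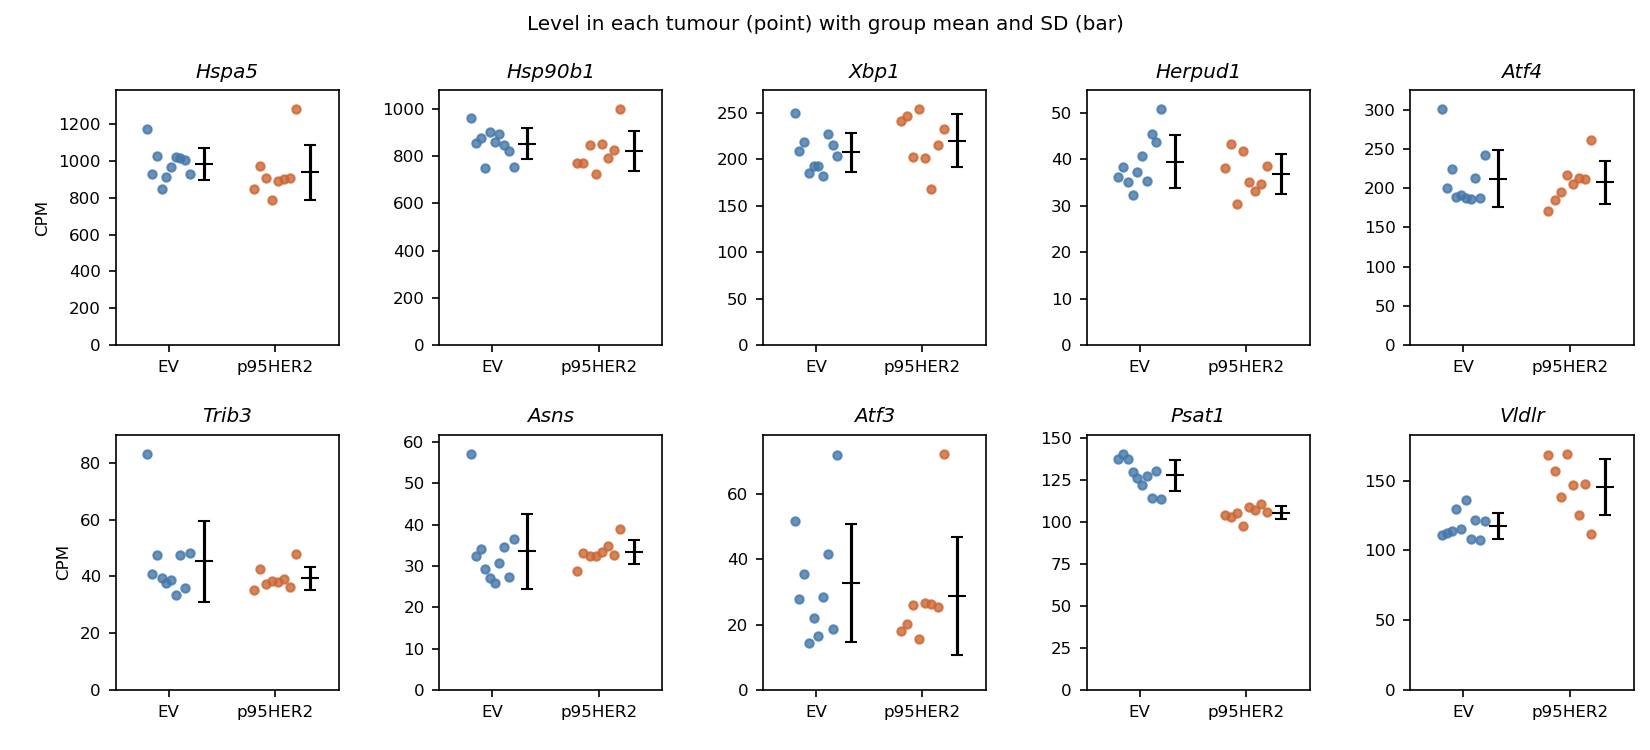
CPM of 10 members in each tumour (y axes start at 0; points, blue for EV and orange for p95HER2) with the mean and SD of each genotype as a bar at its right. The points of Psat1 separate, those of Vldlr overlap in 2 p95HER2 tumours, and single high points in Hspa5, Atf4, Trib3, Asns and Atf3 belong to EV 1, EV 10 or p95HER2 8.

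The binding element of Atf4, the C/EBP-ATF response element (CARE), has the core TGATGNAA. It was found in 7 of 18 Atf4 arm genes with a promoter window (38.9%), against 4.51% of all genes and 1 of 15 ER arm genes, Herpud1. The 7 were Asns, Atf3, Chac1, Nupr1, Slc7a11, Trib3 and Vldlr. A stretch around the element is shown for 4 of them, chosen as a synthesis gene, a glutathione-degrading enzyme gene, a transporter gene and the member that rose; capitals mark the core, or TTNCATCA where it lies on the opposite strand.
Asns, chr6:7693210-7693259, minus strand: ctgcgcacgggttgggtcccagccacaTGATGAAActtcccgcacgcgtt
Chac1, chr2:119351032-119351081, plus strand: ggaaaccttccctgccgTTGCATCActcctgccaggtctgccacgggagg
Slc7a11, chr3:50443639-50443688, minus strand: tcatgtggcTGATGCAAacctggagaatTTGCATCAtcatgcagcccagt
Vldlr, chr19:27216810-27216839, plus strand: gcagcaatagTTGCATCAgcgctcctagcc

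In Asns the core began 23 bases before the start, and Slc7a11 held it at 2 places, 66 and 47 bases before the start. In Vldlr it began 200 bases before the second of its 2 listed starts. The window of Psat1, the member that fell, held none of the 4 elements, which says only that those letters are not in it.

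Several members of the Atf4 arm were correlated across the tumours of one genotype. In EV tumours 14 of 19 correlations with Trib3 were above 0 (median 0.653) and 6 passed: Atf4, Asns, Atf5, Slc3a2, Ppp1r15a and Slc7a5. Among non-members in the same tumours, 19 of 23 other Atf4 and amino acid genes and 15 of 19 tRNA synthetase genes were also above 0 with Trib3. The share over all genes was not computed, so the signs cannot be read as particular to the arm. Trib3 with Atf4 had r = 0.965 (permutation adjusted p = 0.00072) and rho = 0.927 (permutation adjusted p = 0.0223), and the unadjusted p of r, 1e-05, is the smallest the resampling can give. Without EV 1 and EV 7, the tumours farthest from the median of Trib3, r was 0.923 (exact permutation adjusted p = 0.0536). Trib3 with Asns had r = 0.942 (rho = 0.830, permutation adjusted p = 0.0274 and 0.099), and 0.927 without those tumours (exact permutation adjusted p = 0.069). When they were left out, r went from 0.914 to 0.537 for Atf5, from 0.886 to 0.693 for Slc3a2 and from 0.758 to 0.783 for Ppp1r15a. None of the 6 passed without them under TMM scaling; with library totals alone, 4 pairs of the arm passed in EV tumours with all tumours and 1 without the 2 farthest.

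In p95HER2 tumours 14 of 19 correlations with Trib3 were above 0 (median 0.530), and 3 passed: Atf5 (r = 0.917, rho = 0.833, exact permutation adjusted p = 0.0287 and 0.101), Ddit3 (r = 0.902, rho = 0.690, exact permutation adjusted p = 0.0468 and 0.227) and Asns (r = 0.865, rho = 0.738, exact permutation adjusted p = 0.0468 and 0.206). Without p95HER2 2 and p95HER2 8, r was 0.608 for Atf5, 0.362 for Ddit3 and 0.877 for Asns; with 6 tumours the adjusted test could hardly pass, and these values are given as a description. Psat1, Phgdh and Shmt2, genes of serine metabolism, had no correlation with Trib3 that passed. In EV tumours r was 0.174 for Psat1, -0.212 for Phgdh and 0.144 for Shmt2 (rho = 0.018, -0.333 and 0.188, permutation adjusted p of r = 0.813, 0.731 and 0.813). In p95HER2 tumours it was -0.089, -0.138 and -0.554 (rho = -0.190, -0.405 and -0.333, exact permutation adjusted p of r = 0.941, 0.879 and 0.261). Without p95HER2 2 and p95HER2 8 the r of Shmt2 changed sign, to 0.465. Mthfd2 had r = 0.850 in EV (rho = 0.527, permutation adjusted p = 0.0639 and 0.311) and 0.694 in p95HER2 tumours (rho = 0.667, exact permutation adjusted p = 0.146 and 0.249). Across the arms, Hspa5 with Trib3 had r = 0.644 in EV (rho = 0.261, permutation adjusted p = 0.146 and 0.706) and 0.872 in p95HER2 tumours (rho = 0.524, exact permutation adjusted p = 0.0639 and 0.393), and neither passed.

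**Figure D5:**
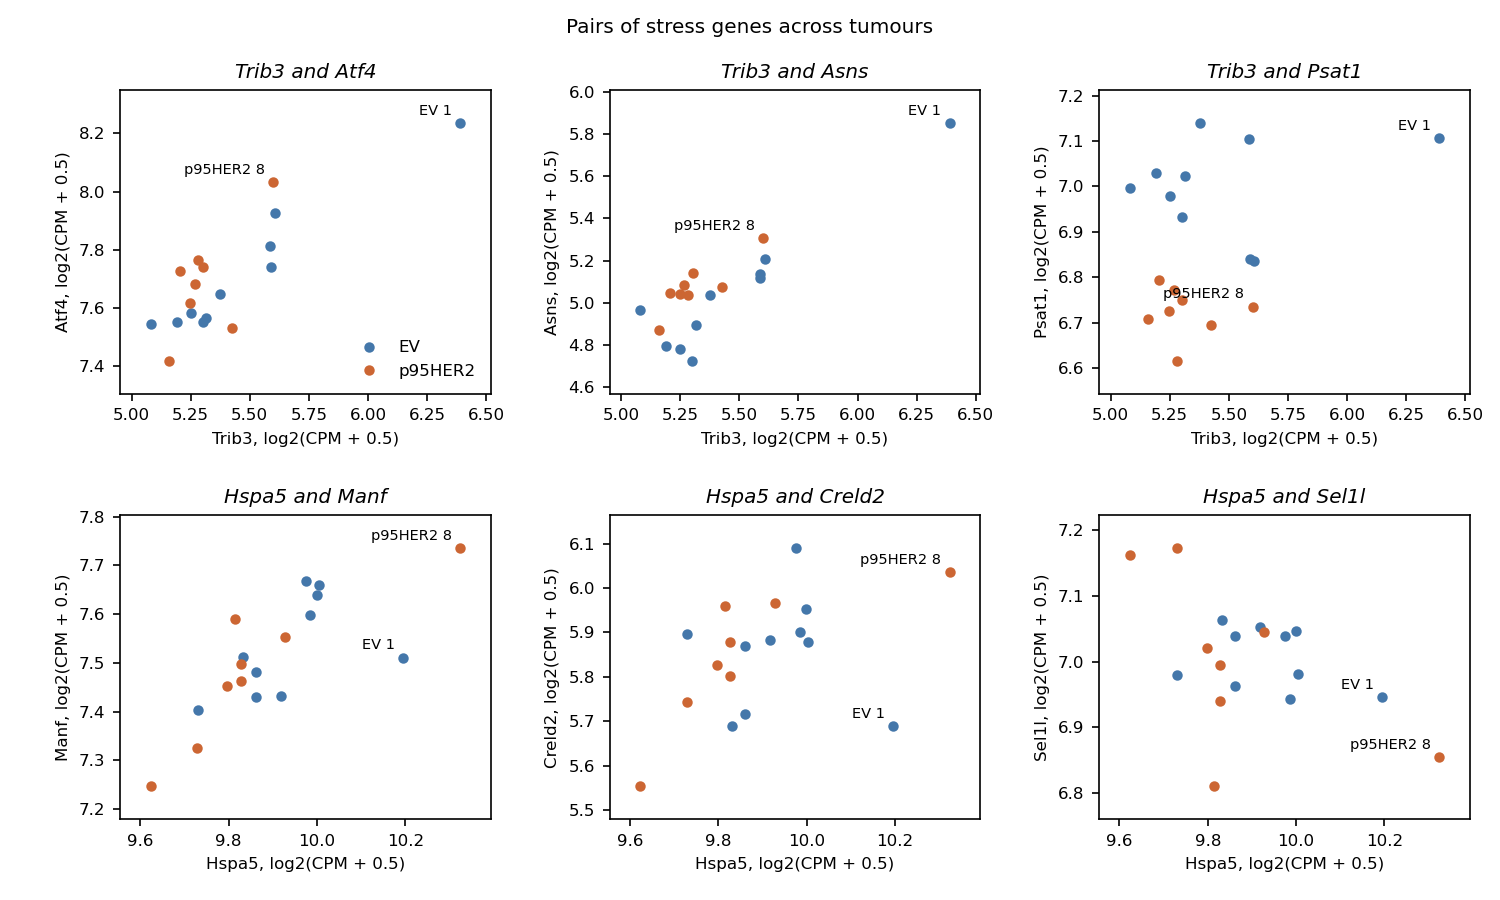
Pairs of members across tumours, both axes as log2(CPM + 0.5), blue for EV and orange for p95HER2, with EV 1 and p95HER2 8 named. EV 1 is the far point for Trib3 in the upper row and p95HER2 8 for Hspa5 in the lower row, and all p95HER2 points of Psat1 lie below all EV points.

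EV 1 and p95HER2 8 were the high tumours of the Atf4 arm. EV 1 had the highest level of its genotype for 11 of the 20 Atf4 arm members, and p95HER2 8 also for 11 of 20. The mean of the arm relative to EV was 0.38 on the log2 scale in EV 1, 0.24 in p95HER2 8, 0.19 in EV 10 and between -0.22 and 0.09 in the other 15 tumours. In the ER arm EV 1 had a mean of -0.02, while p95HER2 8 had the highest mean of all tumours there. EV 1 also had the lowest summed skeletal muscle markers, 111 CPM against 1668 CPM or more in the other EV tumours. It had the highest summed epithelial markers, 3192 CPM against at most 2391 CPM, and the highest adipocyte markers, 128 CPM against at most 86.4 CPM. p95HER2 4, which had the lowest muscle markers of its genotype at 348 CPM, had an Atf4 arm mean of -0.17. The part of these levels in the high Atf4 arm was not tested. With EV 1 and p95HER2 8 both left out, Psat1 and Vldlr were still the members called; without p95HER2 1 they stood at -0.28 and 0.28 (edgeR adjusted p = 0.001619 and 0.02145).

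The rest of the pathway was read from lists of non-member genes. Of 17 stress sensors and genes of eIF2 phosphorylation, 1 rose and none fell: Eif2ak1, the heme-regulated kinase Hri, from 126 ± 9.15 to 145 ± 11.9 CPM (log2 fold change 0.20, SE 0.05, edgeR adjusted p = 0.01801). It lies on chromosome 5, where 44 of 114 tested neighbours within 5 Mb were called higher and 1 lower, with a median of 0.22; the part of position was not tested. The other kinases Eif2ak3, Eif2ak4 and Eif2ak2 and the sensors Ern1 and Atf6 did not pass. By edgeR 5.88% of the list was called, against 10.2% of all genes in either direction. DESeq2 and limma voom each called 2 of the list higher.

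Of 20 other ER folding genes, 4 rose and none fell, and their median log2 fold change was 0.09; DESeq2 called 6 higher and limma voom 7. Over all genes, edgeR called 5.73% higher, DESeq2 7.24% and limma voom 7.27%. Wfs1, an ER membrane protein mutated in Wolfram syndrome, rose from 31.9 ± 2.22 to 39.6 ± 2.03 CPM (log2 fold change 0.31, SE 0.05, edgeR adjusted p = 0.0003437). The disulfide isomerase genes Txndc5 and P4hb rose by 0.11 and 0.12 on the log2 scale, and the collagen prolyl isomerase Fkbp14 by 0.28. Within 5 Mb of P4hb, 26 of 162 tested neighbours were called higher and 4 lower, with a median of 0.098. Near Wfs1, on chromosome 5, 16 of 101 were called higher and 1 lower, with a median of 0.043. The neighbours of Txndc5 and Fkbp14 had medians of -0.035 and 0.012. The part of position was not tested. The call of P4hb ended in 9 of the 18 fits without 1 tumour, that of Fkbp14 in 13 and that of Txndc5 in 1, without EV 7 (edgeR adjusted p up to 0.0738, 0.0852 and 0.05002).

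Of 15 further ER-associated degradation genes, the lectins Os9 and Erlec1 rose by 0.13 and 0.17 on the log2 scale and none fell; the call of Erlec1 ended in 12 of 18 fits without 1 tumour (edgeR adjusted p up to 0.0882). Of 15 translocation genes Sec63, which brings BiP to the translocon, rose by 0.15 and none fell. Of 23 further Atf4 and amino acid genes tested, 1 rose and 2 fell. The shares called were 13.3% of the degradation, 6.67% of the translocation and 13% of these Atf4 and amino acid genes. Over all genes edgeR called 10.2% in either direction. The collagen receptor Ddr2 rose from 36.7 ± 10.96 to 59.1 ± 10.6 CPM. The translation inhibitor Eif4ebp1 fell by 0.25 and the cell death gene Bbc3 by 0.37, with calls that ended in 7 and 15 of 18 fits without 1 tumour (edgeR adjusted p up to 0.0678 and 0.0924). Of 19 cytosolic aminoacyl-tRNA synthetase genes, which Atf4 is known to raise in part, Yars fell by 0.18 on the log2 scale and none rose. That is 5.26% of the list, below the 10.2% of all genes. DESeq2 called 1 of the list higher and limma voom 2. None of 13 heat shock genes and none of 10 Nrf2 target genes passed in edgeR, DESeq2 or limma voom, with 0 and 2 at an unadjusted edgeR p under 0.05. The smallest p in these lists belonged to the mitochondrial chaperonin Hspe1 and to malic enzyme, Me1, at -0.09 and 0.17 on the log2 scale (edgeR adjusted p = 0.660 and 0.127).

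With the macrophage marker level in the model, of the 12 genes called in these lists only Wfs1 kept its call. Of the 10 macrophage markers, 6 were called lower in p95HER2 tumours by edgeR, so this level ran with genotype.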

How the data were processed

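Gene counts of 10 EV and 8 p95HER2 tumours were used as deposited by the authors, as raw whole-number reads per gene. The submitters' processing notes name the build mm10 and the tools STAR 2.5 and HTSeq 0.6.1. No source used here gives the strand setting or annotation release, so values of genes overlapping an antisense gene are uncertain. Gene models came from GENCODE M21. Replicate numbers follow accession order. Genes were kept by filterByExpr (minimum count 10), scaled by TMM and tested with robust edgeR 4.0.16 quasi-likelihood fits (R 4.3.3), BH-adjusted over all 17123 genes. DESeq2 1.42.0 and limma 3.58.1 were alternatives. Standard errors were taken from the F statistic. Correlations used 100000 resamples for 10 tumours and all 40320 orders for 8. The test was checked on simulated counts. The members and lists were chosen with earlier results of these data known; all members were named, and of the pathway lists the genes that passed, with the smallest p where none did. Protein sequences were not analysed here.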

Additional observations from a re-analysis of the deposited data

Results flagged for a closer look

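In 13 of 74 combinations of a member and a genotype, 1 tumour stood far from the others of its group. The rule is set to flag about 1 in 20 by chance. All 13 flags belonged to EV 1, p95HER2 8 or p95HER2 4. The members share their tumours, so the 74 combinations are not independent and whether 13 is an excess was not tested. p95HER2 8 was the far high tumour for Hspa5 (1281 CPM, next 973.6), Hsp90b1 (998.4 CPM, next 851.7), Atf3 (72.36 CPM, next 26.74), Ddit3 (25.38 CPM, next 17.07) and Ppp1r15a (39.49 CPM, next 23.87). EV 1 was the far high tumour for Atf4 (300.8 CPM, next 242.5), Atf5 (165.4 CPM, next 108.6), Trib3 (83.29 CPM, next 48.28), Asns (57.2 CPM, next 36.47), Mthfd2 (64.61 CPM, next 46.98) and Slc7a11 (4.903 CPM, next 2.443). EV 1 was also the far low tumour for Sdf2l1 (39.22 CPM, next 52.46). p95HER2 4 was the far low tumour for Pdia4 (187.7 CPM, next 219.6). The summed skeletal muscle markers were 111 CPM in EV 1 and 348 CPM in p95HER2 4, the lowest of each genotype, and their part in these values was not tested.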

How the results depend on the processing

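The fit was repeated under 29 alternatives: 18 without 1 tumour, 9 with all tumours and 2, chosen after seeing the data, without a pair. None of the 35 members that did not pass was called under any of them. Psat1 and Vldlr were called in all but the fit with the macrophage marker level as a term, which called 0 Atf4 arm members higher and 0 lower, and 139 genes higher and 33 lower in all; the cause was not tested. That level ran with genotype. Without 1 tumour, Psat1 ran from -0.30 to -0.26 and Vldlr from 0.28 to 0.36 (edgeR adjusted p at most 0.001748 and 0.02145). The number of all genes called lower ran from 489 (without p95HER2 2) to 1130 without 1 tumour, and was 1147 without EV 1 and p95HER2 8. With the macrophage level the log2 fold change changed sign for Hsp90b1 (0.0382), Calr (0.0784), Hyou1 (0.0156), Sdf2l1 (0.0486), Dnajc3 (0.0542), Pdia4 (0.0719), Pdia6 (0.1081), Creld2 (0.1062), Manf (0.0312), Xbp1 (-0.1037) and Slc3a2 (-0.1642). Without EV 1 and p95HER2 4 it did for Asns (0.1175) and Mthfd2 (0.0594). Changes of sign by under 1 SE in members that did not pass were treated as no change. Without the 2 farthest tumours, 0 correlations passed in the ER arm in p95HER2, and 0 in the Atf4 arm in EV and 0 in p95HER2 tumours; with library totals alone 1 passed in the Atf4 arm in p95HER2 tumours, and 4 in EV tumours (1 without the 2 farthest). In p95HER2 tumours the counts of 0 say nothing of stability, since 6 tumours could hardly pass. Depth did not overlap between the genotypes, and with all libraries thinned to 32686558 counts the calls among members were the same in number. No paired analysis was possible because the replicate numbers were given in accession order and pair no tumours.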

Other observations

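In a set of 84 further correlations, chosen after seeing the data, Trib3 was compared with the 23 other Atf4 and amino acid genes and 19 cytosolic tRNA synthetase genes in each genotype. The 1 that passed was Trib3 with Sars, the seryl-tRNA synthetase gene, in EV tumours (r = 0.947, permutation adjusted p = 0.0286; rho = 0.842, permutation adjusted p = 0.176). Without EV 1 and EV 7 it was r = 0.890 (exact permutation adjusted p = 0.445). In p95HER2 tumours Trib3 with Sars had r = 0.078 (exact permutation adjusted p = 0.896), and the difference between the genotypes was not tested. Gdf15, a stress cytokine, had r = 0.930 with Trib3 in p95HER2 tumours and did not pass (exact permutation adjusted p = 0.0958).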
